A study of Homo sapiens with 10 samples.

Results

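The comparison described here set bEVs (bacterial extracellular vesicles) from L. paracasei against control HEK293T cells, and rests on 3 of the 10 arrays of the series: 1 array of treated cells, control 1 and control 2. These arrays were chosen by their titles alone. HEK293T cells derive from human embryonic kidney and express the SV40 large T antigen. The treated cells received the L. paracasei bEV at its maximum tolerated dose (MTD) for 6 h, and the controls are labelled as control cells with no further detail. The other 7 bEV arrays come from L. acidophilus, L. rhamnosus, L. plantarum, L. salivarius, S. thermophilus, L. fermentum and Lc. lactis, each at the MTD of its own strain, so strain and dose cannot be told apart. The methods state that triplicate RNA was pooled into 1 composite sample, without saying so of the controls, and the labels do not say whether the controls were separate cultures. One array holds no spread between cultures, so differences are described and not tested. Only the controls repeat a condition, and the number of arrays limits the precision. The label of the treated array writes HEK297T in its title and HEK293T in its cell line field, and a protocol field names Pk2, which is not part of this comparison.

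bEVs of gram-positive bacteria are membrane particles that carry proteins, lipids, nucleic acids and fragments of the cell wall, and host cells can take them up or bind them through pattern recognition receptors. When a cell lacks amino acids, accumulates unfolded protein in the endoplasmic reticulum or senses double-stranded RNA or haem deficiency, kinases phosphorylate the translation factor eIF2alpha. General translation then declines while that of the transcription factor ATF4 continues, and ATF4 induces genes for amino acid synthesis, tRNA charging and restraint of the growth kinase complex mTORC1. This program is called the integrated stress response, and several of the genes with the highest differences from the controls are among its known targets.

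All values are log2 signals of probe sets as deposited, and a difference of 0.58 is the 1.5-fold threshold used for a DEG in the study's methods. Of 14884 named genes, 395 (2.65%) were higher and 299 (2.01%) lower by 1.5-fold than the mean of both controls. Against control 1 alone 633 were higher and 543 lower, and against control 2 alone 488 and 414. Against each of the controls at once, 200 genes (1.34%) were higher and 130 (0.873%) lower. The controls themselves differed by 1.5-fold in 809 genes (5.44%), of which 71.3% lay below the median signal of 4.63. The threshold was crossed in more genes between the controls than between the L. paracasei array and their mean, but a mean of 2 arrays varies less than 1 array. Against a single control, the like comparison, the array crossed it in 1176 genes (control 1) and 902 genes (control 2), both more than 809. The median absolute log2 difference was 0.20 to control 1, 0.19 to control 2 and 0.17 between the controls. Among the 7442 genes with at least the median signal, called higher-signal genes here, 232 differed by 1.5-fold between the controls, 473 between the array and control 1, and 289 between the array and control 2. In these genes, 86 (1.16%) were higher and 33 (0.443%) lower than each control. Where no size was asked for, 37.3% of all genes lay above both controls and 34.1% below both, and among higher-signal genes these shares were 44.9% and 28.4%. The median difference from the mean of the controls was 0.01 over all genes and 0.05 over the latter.

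**Figure D1:**
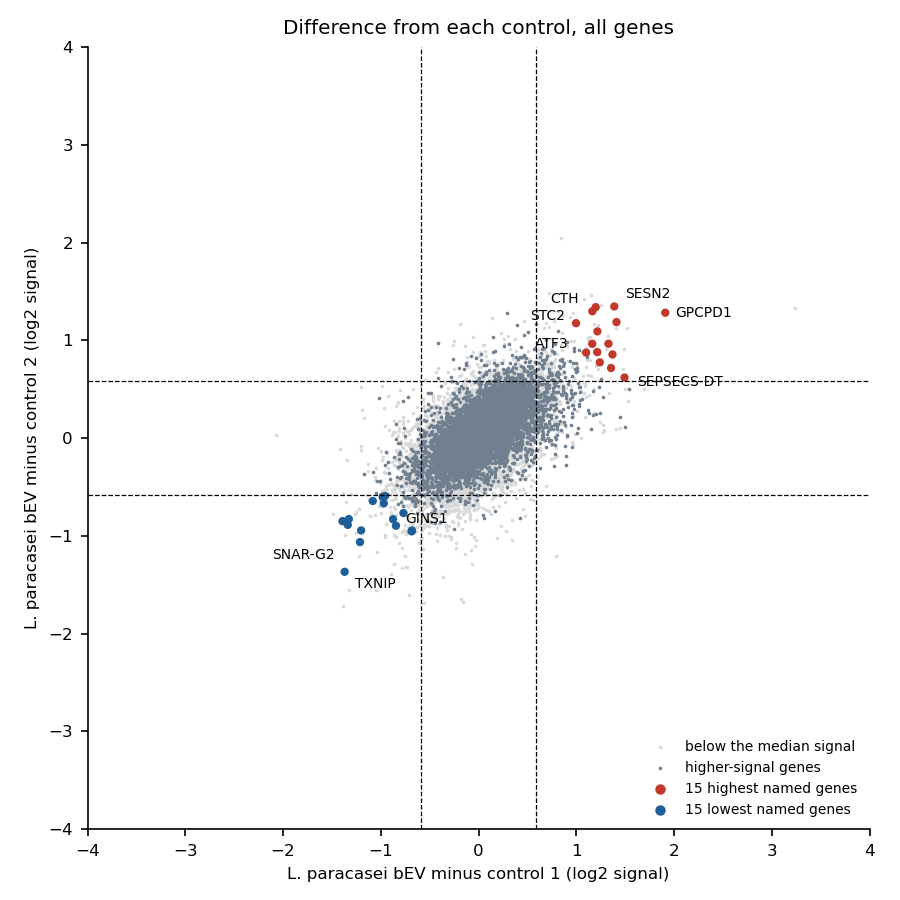
Difference in log2 signal between the L. paracasei array and control 1 (horizontal axis) and control 2 (vertical axis) for each of 14884 genes, with dashed lines at 1.5-fold and the 15 highest and 15 lowest named genes in red and blue. Both axes share the treated array, so points lie along the diagonal, and the upper right and lower left corners hold the 200 and 130 genes that passed against each control.

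Of 4 measured markers of the HEK293T line, 3 had at least the median signal in the L. paracasei array. LIN28B had signals of 8.54 and 8.32 in the controls and 8.48 in the L. paracasei array, and VIM 7.93, 7.81 and 8.12. LHX1, a kidney developmental factor, was at 5.33, 5.29 and 5.49, and PAX2 was below the median signal in all 3 arrays, at 4.52, 4.40 and 4.10. The kidney tubule marker AQP2 read 5.20, 4.55 and 4.39. The mean signal of 3 measured hepatocyte markers was 3.61, 3.50 and 3.40. The mean signal of 3 measured leukocyte markers was 3.21, 3.12 and 3.34, that of 3 fibroblast markers 2.83, 2.83 and 2.75, and that of 3 endothelial markers 2.61, 2.38 and 2.52. No marker passed 1.5-fold against each control. In bulk RNA, fewer cells of a type and less RNA per cell cannot be told apart.

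Of the 15 lowest genes, 5 were microRNA genes, and their mature products are printed here to identify them. Mature microRNAs bind targets mainly through the seed, bases 2 to 8 from the 5′ end, which is in capitals below. The sequences are those of RefSeq on GRCh38.p14, and a further microRNA gene among the 15, MIR486-1, is named only.
hsa-miR-502-5p, chrX:50014613-50014633: aUCCUUGCuaucugggugcua
hsa-miR-502-3p, chrX:50014649-50014670: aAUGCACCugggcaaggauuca
hsa-miR-4292, chr9:136830996-136831013: cCCCUGGGccggccuugg
hsa-miR-4521, chr17:8186948-8186969: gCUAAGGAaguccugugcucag
hsa-miR-1226-5p, chr3:47849555-47849580: gUGAGGGCaugcaggccuggaugggg
hsa-miR-1226-3p, chr3:47849608-47849629: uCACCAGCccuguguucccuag
No seed was shared among these 6 sequences, all of which lie on the plus strand. The arrays were hybridised with labelled cDNA of total RNA and a probe set names a gene, so the values below do not tell precursor from mature RNA.

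MIR502 had signals of 5.88 and 5.43 in control 1 and control 2 and 4.54 in the L. paracasei array, a difference of -1.11 from their mean. The other 7 bEV arrays lay between 5.15 and 5.98 for this gene, so the L. paracasei array stood 0.61 below the nearest of all 9 other arrays. MIR4292 read 6.94, 6.99 and 6.09 (difference -0.87), and MIR4521 read 8.16, 7.72 and 7.08 (-0.86). MIR1226 had 4.79, 5.06 and 4.11 (-0.81). In these 4 genes the L. paracasei array was the lowest of the 10. MIR486-1 had 5.94, 6.21 and 5.26, but of its 3 probe sets, 2 gave the same difference of -0.82 and the other gave 0.02. Over all 1098 microRNA genes, 35 passed 1.5-fold above each control and 35 below (beside 1.34% and 0.873% of all genes), with a median difference of -0.02. By annotated gene type, 153 higher-signal genes were microRNA genes, and of these 2 were higher and 9 lower than each control (beside 1.16% and 0.443% of higher-signal genes), while 22.9% lay above both controls and 43.8% below both, beside 44.9% and 28.4% of higher-signal genes. MIR4756 was 1 of the 2 higher genes, at 5.00, 4.42 and 5.59, and was chosen after its values were seen.

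The higher-signal gene with the highest difference was GPCPD1, an enzyme that splits glycerophosphocholine. Its signal was 5.56 in control 1, 6.19 in control 2 and 7.47 in the L. paracasei array, a difference of 1.60 from the mean of the controls. The controls were 0.63 apart, and the difference was 1.91 against control 1 and 1.28 against control 2. CHKA, the choline kinase that opens phosphatidylcholine synthesis, was among the 15 lowest, at 6.07, 5.69 and 5.09 (-0.79), and here too the controls differed, by 0.38. GPCPD1 and CHKA were the only genes of 33 measured in choline and glycerophospholipid metabolism to pass against each control, and the median of that list was -0.01. Within it, the lipin LPIN2 read 5.44, 5.51 and 6.00, and the phosphatidylglycerophosphate synthase PGS1 read 6.73, 7.03 and 7.36, neither of which reached 1.5-fold. The other 7 bEV arrays had a lowest, median and highest signal of 6.06, 6.98 and 7.52 for GPCPD1 and of 5.18, 5.58 and 6.04 for CHKA. The L. paracasei array was therefore inside their range for GPCPD1 and below it for CHKA.

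**Figure D2:**
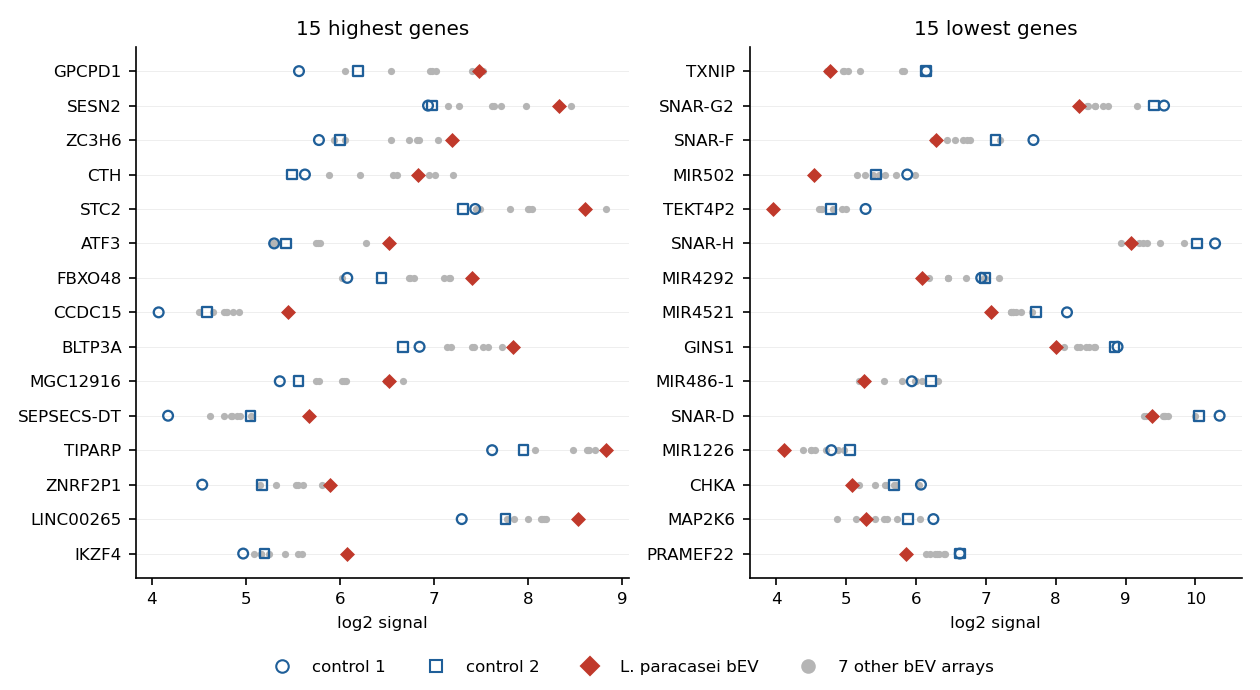
Log2 signal in each of the 10 arrays (horizontal axis) of the 15 highest and 15 lowest of the higher-signal genes that exceeded 1.5-fold against each control. Open symbols are the controls, red diamonds the L. paracasei array and grey points the 7 other bEV arrays, and the red diamond lies beyond both open symbols in each gene, which the choice of the genes fixes, and beyond the grey points too in some of them, such as SEPSECS-DT and MIR502.

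Of the 6 higher-signal genes with the highest differences, 4 belong to the integrated stress response. SESN2, a leucine sensor that restrains mTORC1, had signals of 6.93 and 6.98 in the controls and 8.32 in the L. paracasei array, a difference of 1.37. CTH, the cystathionine gamma-lyase that makes cysteine, read 5.63, 5.49 and 6.83 (1.27), and STC2, the secreted glycoprotein stanniocalcin 2, read 7.44, 7.30 and 8.60 (1.23). ATF3, a stress-induced transcription factor, read 5.30, 5.42 and 6.52 (1.15). In each of these genes the controls were at most 0.14 apart. ATF3 was higher in the L. paracasei array than in any other array, by 0.01, with 5.29, 5.77 and 6.50 as the lowest, median and highest of the other 7 bEV arrays. SESN2, STC2 and CTH ranked 2nd, 2nd and 4th from the top of the 8 bEV arrays, with highest signals elsewhere of 8.46, 8.83 and 7.20.

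Of the 47 genes written for the integrated stress response, 25 were measured. Of these, 10 were higher than the mean of the controls by 1.5-fold and none was lower, and 7 passed against each control (28% of the list, beside 1.34% of all genes). Above both controls lay 18 (72%, beside 44.9% of higher-signal genes) and below both lay 1. The median difference was 0.35, against 0.05 for higher-signal genes, and was 0.29 against control 1 and 0.33 against control 2. This list was drawn up with earlier results of these arrays known, so its counts are a description. Its mean signal was 6.37 and 6.32 in the controls and 6.81 in the L. paracasei array, and 6.35, 6.58 and 6.85 were the lowest, median and highest of the other 7 bEV arrays. The L. paracasei array was thus above both controls and 2nd of the 8 bEV arrays.

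By role, the kinases that phosphorylate eIF2alpha were led by EIF2AK3 (PERK, the sensor of unfolded protein in the endoplasmic reticulum), at 5.78, 5.82 and 6.63. Its difference was 0.83, and its signal exceeded that of every other array, whose highest was 6.33. The differences of EIF2AK1, EIF2AK2 and EIF2AK4, which sense haem deficiency, double-stranded RNA and uncharged tRNA, were 0.14, 0.13 and 0.16. Among the transcription factors, ATF4 itself read 8.57, 8.77 and 9.20 (0.53), just under the threshold. DDIT3 (CHOP), which promotes cell death in prolonged stress, was at 3.17, 3.30 and 3.19 (-0.04), and ATF5 was at 6.42, 6.12 and 6.24. TRIB3, a feedback inhibitor of ATF4, had a difference of 0.14. The factors thus split, with ATF3 and ATF4 above both controls and DDIT3 and ATF5 between them.

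Among 8 measured enzymes of amino acid synthesis, 6 lay above both controls and none below both (beside 44.9% and 28.4% of higher-signal genes). ASNS, the asparagine synthetase, read 7.38, 7.26 and 7.95 (0.63), and SHMT2, which makes glycine in mitochondria, read 5.83, 6.00 and 6.52 (0.60). Serine synthesis starts with PHGDH, at 7.86, 7.88 and 8.22, and continues with PSAT1, at 10.21, 10.35 and 10.67, both under 1.5-fold. PSPH, its last enzyme, was at 7.35, 7.45 and 7.41, between the controls. PCK2, the mitochondrial phosphoenolpyruvate carboxykinase, read 5.00, 5.11 and 5.88 (0.82), and VLDLR, a lipoprotein receptor, read 4.21, 3.91 and 5.15 (1.08). The secreted factors differed among themselves: beside STC2 at 1.23, the stress hormone GDF15 had a difference of -0.34 and FGF21 one of 0.09. DDIT4 (REDD1), an inhibitor of mTORC1, passed against the mean with 0.78, but its controls read 7.20 and 6.21 and the array 7.49, so the difference from control 1 alone was 0.29.

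**Figure D3:**
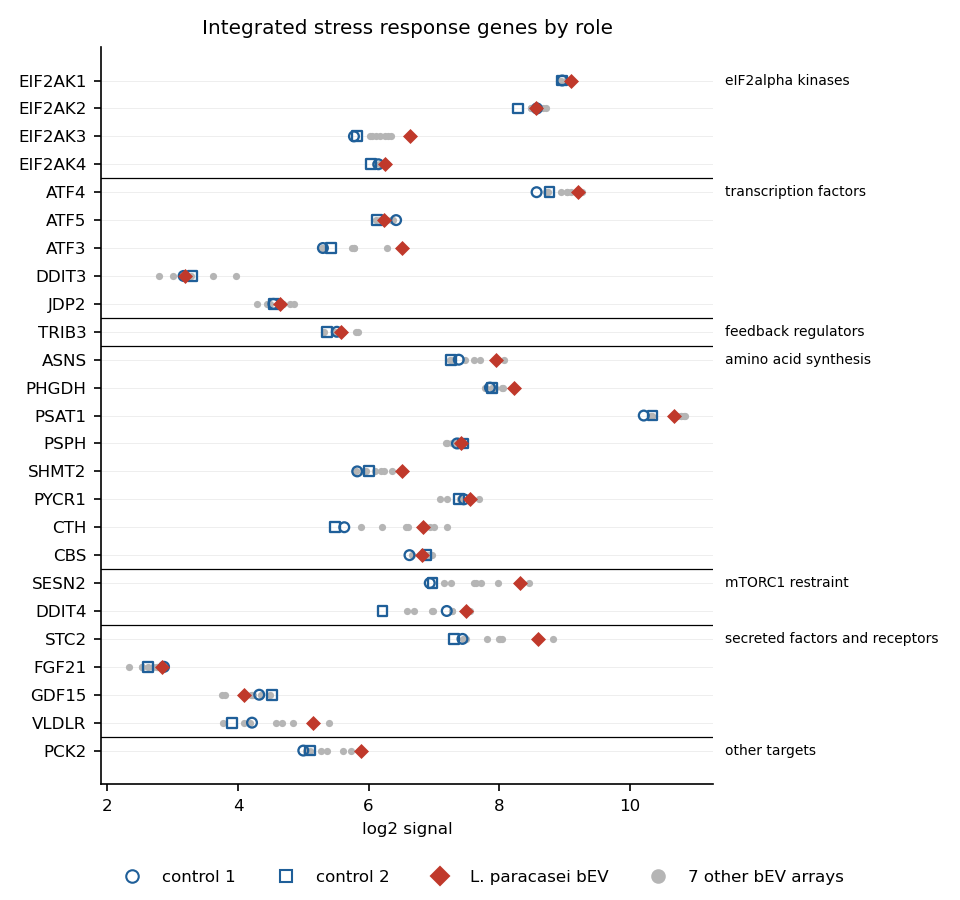
Log2 signal (horizontal axis) of the 25 measured genes of the integrated stress response in each of the 10 arrays, grouped by role. The red diamond of the L. paracasei array lies to the right of both open control symbols in 18 genes, farthest for SESN2, CTH, STC2, ATF3 and VLDLR.

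Cytosolic aminoacyl-tRNA synthetases load tRNAs with amino acids, and many of their genes are ATF4 targets. Of 20 written, 17 were measured and none passed 1.5-fold. Above both controls lay 14 (82.4%, beside 44.9% of higher-signal genes) and below both lay 1 (beside 28.4%). Their median difference was 0.33, with 0.37 against control 1 and 0.21 against control 2. GARS1, for glycine, read 7.74, 8.01 and 8.43 (0.56), SARS1, for serine, 7.77, 7.84 and 8.33 (0.52), QARS1, for glutamine, 7.72, 8.11 and 8.41 (0.49), and EPRS1, for glutamate and proline, 9.62, 9.65 and 10.11 (0.48). RARS1, for arginine, was below both controls, at 9.75, 9.55 and 9.52, and HARS1, for histidine, and IARS1, for isoleucine, lay between the controls. The mean signal of the list was 8.17 in control 1, 8.35 in control 2 and 8.54 in the L. paracasei array. The other 7 bEV arrays had a median of 8.50 and a highest of 8.56, so the L. paracasei array was 2nd of 8. The step between the controls was nearly as large as that from control 2 to the array.

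mTORC1 is switched on at the lysosome by Rag GTPases when amino acids are present, and GATOR1, sestrins, the TSC complex and DDIT4 hold it back. Of 35 measured genes of this system, 2 passed against the mean (SESN2 and DDIT4, which are also in the stress response list) and 26 (74.3%, beside 44.9% of higher-signal genes) lay above both controls. The list median was 0.20, but it depended on the control, with 0.25 against control 1 and 0.10 against control 2. In the inhibitory branch, 10 of 12 genes lay above both controls and none below both. The GATOR1 subunits DEPDC5 and NPRL3 read 4.71, 5.22 and 5.32 and 7.09, 7.11 and 7.39, and TSC1 read 6.90, 7.00 and 7.20. For DEPDC5 the controls were 0.52 apart. NPRL2, also a GATOR1 subunit, lay between the controls, at 5.37, 5.05 and 5.13. The kinase MTOR itself had 7.87, 7.90 and 8.21 (0.33). In the Rag branch, RRAGC was at 5.84, 6.01 and 6.45 (0.53) and the folliculin partner FNIP1 at 6.71, 6.63 and 7.19 (0.52). LAMTOR5, a subunit of the lysosomal anchor, was lower, at 5.68, 5.44 and 5.29. The L. paracasei array had the highest of the 8 bEV signals in 12 of the 35 genes (34.3%), beside 18.6% of all higher-signal genes, and the lowest in none.

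**Figure D4:**
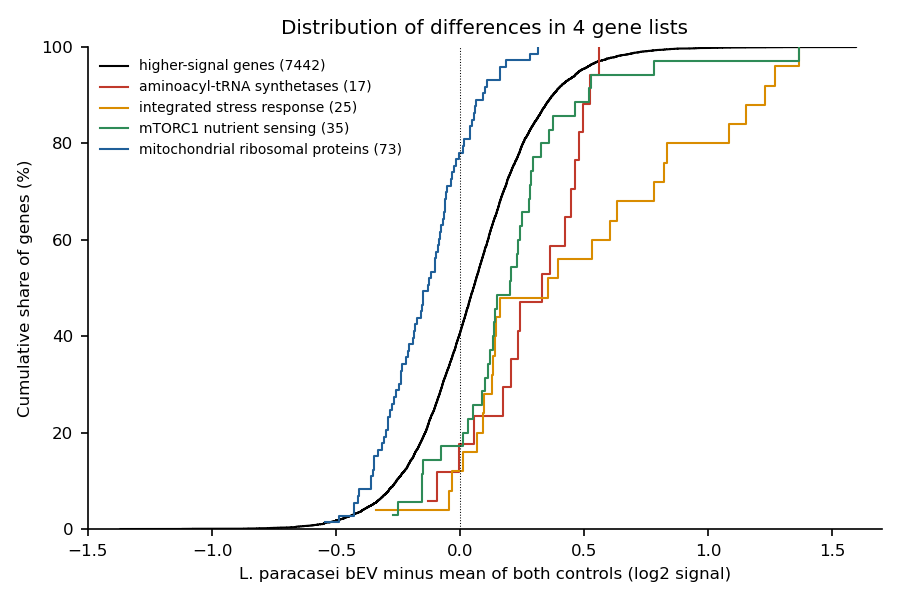
Cumulative share of genes (vertical axis, percent) at or below a given log2 difference between the L. paracasei array and the mean of both controls (horizontal axis), for 4 gene lists and for the 7442 higher-signal genes. The curves of the stress response, tRNA synthetase and mTORC1 lists lie to the right of the black curve (medians 0.35, 0.33 and 0.20 against 0.05), and that of the mitochondrial ribosomal proteins lies to the left (-0.13).

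In the unfolded protein response of the endoplasmic reticulum, which shares PERK with the list above, EIF2AK3, ERN1, ATF6 and XBP1 all lay above both controls. XBP1, the factor that ERN1 activates by splicing, read 6.96, 6.78 and 7.36 (0.49), the sensor ERN1 (IRE1alpha) 5.20, 5.08 and 5.59 (0.45), and the sensor ATF6 8.21, 8.30 and 8.52 (0.27). The 8 measured chaperones and folding enzymes did not share this, with a median of 0.02 and 3 of 8 above both controls (beside 44.9% of higher-signal genes). Of 5 measured degradation and export genes, 3 lay above both controls and 1 below both, with a median of 0.09. The lower gene was DERL2, which exports misfolded protein, at 7.49, 7.17 and 6.88. Among 13 genes of the heat shock response, none passed 1.5-fold, and HSPA1A (12.07, 12.18 and 11.90), HSPA1B (12.34, 12.50 and 12.13) and the co-chaperone STIP1 (8.13, 7.95 and 7.69) lay below both controls. The heat shock median was 0.05 against the mean and -0.09 and -0.07 against control 1 and control 2, so it had no settled sign.

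The lowest protein-coding gene among higher-signal genes was TXNIP, an arrestin that limits glucose uptake, binds thioredoxin and is induced by the glucose-sensing factor MondoA. Its signal was 6.15 in each control and 4.78 in the L. paracasei array, a difference of -1.37. Its second probe set had a low mean signal of 2.40 and a difference of -1.70. The other 7 bEV arrays read 4.73, 5.03 and 5.83 as lowest, median and highest, so the L. paracasei array was the 7th of 8 and not the lowest. ARRDC3, a related arrestin, lay on the other side, at 6.25, 6.12 and 6.94 (0.75). The remaining 7 of 9 measured genes around MondoA and its relative ChREBP did not reach 1.5-fold. Among them were MLXIP (MondoA itself), at 6.68, 6.87 and 7.12, and ARRDC4, another related arrestin, at 6.609, 6.515 and 6.518 (-0.045). None of 9 measured glycolytic genes reached 1.5-fold, and HK2, a hexokinase, read 7.27, 7.08 and 7.34.

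Of the lowest 15 genes, 4 were SNAR genes, short noncoding RNAs that bind the protein NF90. SNAR-G2 read 9.55, 9.40 and 8.34 (-1.14), SNAR-F 7.68, 7.14 and 6.29 (-1.12), SNAR-H 10.28, 10.03 and 9.08 (-1.07) and SNAR-D 10.35, 10.05 and 9.38 (-0.82). All 4 were below both controls by more than the controls were apart. Of 8 SNAR genes measured, 7 lay below both controls (beside 34.1% of all genes), and the exception was SNAR-G1, at 6.23, 5.52 and 5.75. The median was -0.71 over the 8. SNAR genes are near-identical copies that probes can share, so they are not 8 separate measurements and their single values are uncertain. SNAR-G2 was the lowest in the L. paracasei array of all 10 arrays, while SNAR-F and SNAR-H ranked 7th and SNAR-D 6th of the 8 bEV arrays.

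Long noncoding RNA genes were placed differently. Of the higher-signal genes, 215 were of this type, and 8 were higher and 0 lower than each control (beside 1.16% and 0.443% of higher-signal genes). Against the mean of the controls, 31 were higher and 0 lower, beside 193 and 64 of the 7442 higher-signal genes. Above both controls lay 54.9% and below both 14.9%, beside 44.9% and 28.4% of higher-signal genes. The median was 0.17, beside 0.05. Over all 1398 of them, at any signal, the shares were 35.4% and 34.0%, close to those of all genes. In this class 29 of the 215 genes differed by 1.5-fold between the controls, beside 232 of the 7442 higher-signal genes. That is about as many as differed between the array and the mean of the controls, which varies less than 1 control.

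LINC00265 and MGC12916 are the noncoding genes among the 15 highest whose promoters, 250 bases before to 50 after the start, hold a motif that was searched, which is in capitals. The motifs, each read on both strands, were TGATGNAAT (a form of the C/EBP-ATF response element bound by ATF4), CACGTG (the E-box) and TGACGTCA (the cAMP response element, CRE). The sequences are from RefSeq on GRCh38.p14, plus strand.
LINC00265, chr7:39733318-39733617: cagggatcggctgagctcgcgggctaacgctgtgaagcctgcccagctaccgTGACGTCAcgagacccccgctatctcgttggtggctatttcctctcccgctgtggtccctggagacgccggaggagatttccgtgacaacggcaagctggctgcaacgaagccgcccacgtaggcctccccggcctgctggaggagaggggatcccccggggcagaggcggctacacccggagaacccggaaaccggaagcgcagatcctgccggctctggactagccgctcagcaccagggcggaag
MGC12916, chr17:14303490-14303789: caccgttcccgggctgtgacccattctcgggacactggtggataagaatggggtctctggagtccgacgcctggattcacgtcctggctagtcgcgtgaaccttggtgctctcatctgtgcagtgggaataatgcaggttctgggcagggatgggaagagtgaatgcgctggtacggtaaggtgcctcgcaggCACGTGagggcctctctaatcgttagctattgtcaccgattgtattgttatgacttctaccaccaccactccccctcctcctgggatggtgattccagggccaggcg
LINC00265 had signals of 7.29, 7.76 and 8.53 in control 1, control 2 and the L. paracasei array, a difference of 1.01, and its signal exceeded the highest of the other 7 bEV arrays, 8.19. Its 2 other probe sets had differences of 0.80 and 0.06. MGC12916 read 5.36, 5.56 and 6.52 (1.06). Of 35116 promoters of this length, 649 (1.85%) hold the CRE, 2548 (7.26%) the E-box and 348 (0.991%) the string TGATGNAAT. Of 12 of the 15 highest genes that have a promoter in the table, 1 holds the CRE, 1 the E-box and 0 TGATGNAAT. Of 21 genes of the stress response list with a promoter there, 1 holds TGATGNAAT (FGF21), 2 the E-box (ATF4 and EIF2AK2) and 0 the CRE. These matches are of letters only and the windows are short. A site that departs from the string is not counted, so a gene without a match may still hold a site bound by ATF4.

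SEPSECS-DT, a divergent transcript at the gene of the enzyme that makes selenocysteinyl-tRNA, stood farthest above all other arrays. It read 4.17 in control 1, 5.05 in control 2 and 5.67 in the L. paracasei array, 0.62 above the nearest of the 9 other arrays. The controls were 0.88 apart, more than that gap. SEPSECS itself, chosen after its values were seen, was at 6.08, 5.82 and 6.74 (0.79). CCDC15, a coiled-coil protein gene, read 4.07, 4.59 and 5.44 and lay 0.51 above the nearest other array, and IKZF4, which encodes the Ikaros family factor Eos, read 4.97, 5.20 and 6.07 and lay 0.48 above. CLSTN3 (calsyntenin 3), at 6.22, 5.99 and 6.69, and PIP4P2, a phosphatidylinositol 4,5-bisphosphate phosphatase, at 4.54, 4.96 and 5.42, followed with gaps of 0.46 and 0.43. CLSTN3, with a difference of 0.583, fell just under 1.5-fold (0.585) against the mean of the controls. PIP4P2 passed against the mean (0.671) but not against control 2 (0.460).

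On the low side, after MIR502, the gaps were 0.40 for B9D2, a protein of the ciliary transition zone (5.12, 5.40 and 4.66), and 0.40 for CYB561D2, a transmembrane cytochrome (5.25, 5.23 and 4.74). They were 0.40 for CHSY1, a chondroitin sulfate synthase (6.49, 6.39 and 5.99), and 0.39 for AAGAB, which binds clathrin adaptors (6.24, 6.38 and 5.84). The last 3 did not reach 1.5-fold against the mean of the controls. Of the 7442 higher-signal genes, the L. paracasei array was the highest of all 10 in 1113 and the lowest in 512.

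The remaining genes of the highest 15 were ZC3H6, FBXO48, BLTP3A, TIPARP and ZNRF2P1. ZC3H6, a CCCH zinc finger protein, read 5.78, 6.00 and 7.19 (1.30), the F-box protein FBXO48 6.08, 6.44 and 7.41 (1.15), and BLTP3A, a bridge-like lipid transfer protein, 6.84, 6.67 and 7.84 (1.09). For ZC3H6, FBXO48 and BLTP3A the L. paracasei array had the highest signal of the 10. TIPARP, an ADP-ribosyltransferase and target of the aryl hydrocarbon receptor, read 7.62, 7.95 and 8.83 (1.05), and the receptor AHR itself 7.75, 7.84 and 8.20 (0.41). The pseudogene ZNRF2P1 read 4.54, 5.17 and 5.89 (1.03), but its second probe set had a difference of -0.03.

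On the low side the remaining genes were GINS1, MAP2K6, PRAMEF22 and TEKT4P2. GINS1, a subunit of the replicative helicase complex, read 8.89, 8.84 and 8.01 (-0.85), below all other arrays. MAP2K6, an activator of p38 kinase, read 6.25, 5.89 and 5.30 (-0.77), and PRAMEF22, a PRAME family gene, 6.63, 6.63 and 5.86 (-0.77). The pseudogene TEKT4P2 had a difference of -1.08 in the probe set used and 0.38 in its other one, so its direction depends on the probe set. GINS1 aside, the cell cycle list of 41 genes had none at 1.5-fold and a median of -0.03, with CCND1 (cyclin D1) at 6.83, 6.49 and 6.16 and WEE1, which holds back mitotic entry, at 6.89, 7.04 and 7.43.

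ZNF genes encode zinc finger proteins, and 491 were measured, at any signal. Of these, 14 were higher and 1 was lower than each control, 239 (48.7%) lay above both and 121 (24.6%) below both, and the median was 0.10. Beside these shares, 37.3% and 34.1% of all genes and 44.9% and 28.4% of higher-signal genes lay so, and 1.34% and 0.873% of all genes passed against each control. Among higher-signal genes, ZNF490 read 4.71, 4.84 and 5.73 (0.96) and ZNF621 read 6.38, 6.66 and 7.38 (0.86). ZNF506 had the largest difference, 1.31, at a low signal of 2.70, 2.38 and 3.85, and ZNF430 was the lower one, at 2.91, 2.74 and 2.04. Of 73 mitochondrial ribosomal protein genes, 12 (16.4%) were above both controls and 46 (63.0%) below both, beside 44.9% and 28.4% of higher-signal genes, with a median of -0.13 and none at 1.5-fold. MRPS7 read 8.66, 8.69 and 8.13 (-0.55) and MRPS34 read 8.36, 8.21 and 7.86 (-0.43). For the 52 measured genes named as cytosolic ribosomal proteins the median was -0.02, and 10 lay above and 17 below both controls. Of 15 nuclear-encoded subunits of oxidative phosphorylation, 6 lay above and 6 below both controls, with CYC1 (cytochrome c1) at 9.37, 9.19 and 8.88 and UQCRB at 5.17, 5.79 and 5.92. In 11 of these 15 (73.3%, beside 18.6% of higher-signal genes) the L. paracasei array was the highest of the 8 bEV arrays. The median difference of these 15 from the mean of the controls was 0.04, so this rank does not mark a rise over the controls.

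**Figure D5:**
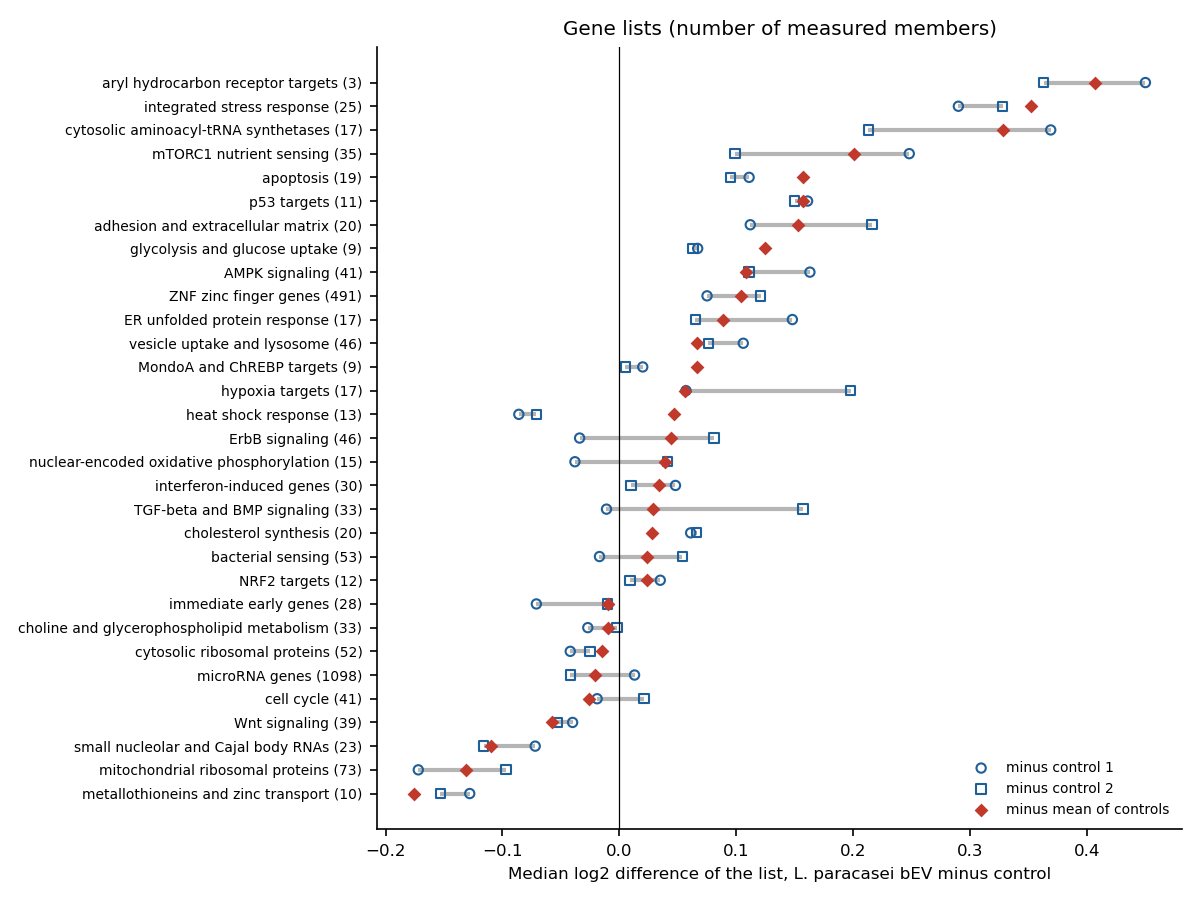
Median log2 difference (horizontal axis) of each of 31 gene lists between the L. paracasei array and control 1 (open circles), control 2 (open squares) and their mean (red diamonds), with the number of measured members in brackets. The 3 measured aryl hydrocarbon receptor genes, the stress response and the tRNA synthetases lie farthest to the right, and the metallothioneins and mitochondrial ribosomal proteins farthest to the left.

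Pathways that the study picked from its own enrichment of these arrays, among them AMPK, ErbB, TGF-beta and Wnt signaling, are not independent evidence here. AMPK, the kinase that senses low energy, had 41 measured pathway genes, of which PCK2 alone passed against each control, with a median of 0.11. Above both controls lay 4 of 11 upstream regulators, 4 of 10 lipid targets, 3 of 9 carbohydrate targets and 7 of 11 growth targets. Below both lay 1, 1, 3 and 2 of them in the same order, beside 37.3% and 34.1% of all genes above and below. Among the lower genes, the insulin-side regulator IRS2 read 4.28, 3.82 and 3.65, and CCND1 and CPT1C (3.77, 4.13 and 3.46) were also below both controls. In ErbB signaling, SOS2, an exchange factor for Ras, read 6.24, 6.47 and 7.23 (0.88), the kinase ABL2 6.63, 6.78 and 7.37 (0.67) and the adaptor SHC3 4.20, 4.18 and 3.55 (-0.64). None of 8 measured ErbB ligands lay above both controls and 5 lay below both, beside 37.3% and 34.1% of all genes. NRG4, at 3.84, 4.23 and 3.48, was among these 5, and none of the 8 reached 1.5-fold. The ErbB median was 0.04 over 46 genes.

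In TGF-beta and BMP signaling, the BMP antagonist NOG was the only gene of 33 to pass against each control, at 5.94, 5.96 and 5.31 (-0.64). BAMBI, a decoy receptor, read 7.18, 7.34 and 6.71, and the ligand GDF11 read 6.80, 6.28 and 5.99. CCN2, a secreted target of TGF-beta, read 5.47, 6.09 and 6.43, so that its difference was 0.65 from the mean but 0.34 from control 2. None of 39 Wnt genes reached 1.5-fold, the receptor FZD6 being nearest with 7.00, 6.92 and 7.54 (0.57), and the median was -0.06.

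Sensing of bacterial products through Toll-like receptors leads to NF-kappaB activity, cytokine genes and interferon. Of 53 measured genes, 19 lay above and 19 below both controls (beside 37.3% and 34.1% of all genes), and the median was 0.02. TLR2, the receptor for lipoproteins of gram-positive bacteria, was the only one to pass against each control, at 2.08, 2.11 and 2.83 (0.73), a signal far below the median of 4.63 in all 3 arrays. The cytokine genes CXCL3 (2.85, 2.39 and 1.90) and CCL2 (1.94, 2.12 and 1.44) were lower than the mean at similarly low signals, and TNF read 2.99, 3.24 and 2.67. In the 11 cytokine targets of NF-kappaB, 3 lay above and 6 below both controls. Of 30 interferon-induced genes, 15 lay above and 12 below both controls (beside 37.3% and 34.1% of all genes). Of them 1 was higher and 2 lower than each control, beside 1.34% and 0.873% of all genes. DDX60 (2.99, 2.83 and 3.69) was the higher one, and IFIT1 (3.53, 3.66 and 2.67) and OASL (4.11, 4.39 and 3.48) were the lower ones. These 3 genes were below the median signal of 4.63 in all 3 arrays. IFITM2, a restriction factor at a higher signal, read 6.07, 6.21 and 6.76.

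Some of the remaining lists held 1 or more genes that passed against each control. NFE2L2 (NRF2), the regulator of antioxidant genes, read 5.31, 5.42 and 6.17 (0.80). The 11 other genes of the NRF2 list did not reach 1.5-fold, HMOX1 being at 7.53, 7.59 and 7.44 and SRXN1 at 6.25, 5.93 and 5.59. BCL2, an inhibitor of apoptosis, read 5.87, 5.61 and 6.52 (0.78) and was the only one of 19 apoptosis genes to pass. Of 17 hypoxia targets, VEGFA, the endothelial growth factor (5.64, 5.72 and 6.46, a difference of 0.78), and VLDLR were higher than each control and ADM (adrenomedullin) was lower, at 5.54, 5.52 and 4.89 (-0.63). INSIG1, which holds the sterol sensor in the endoplasmic reticulum, read 7.39, 7.53 and 8.19 (0.72) and stood alone among 20 cholesterol genes, whose median was 0.03. Of the immediate early genes, ATF3 alone passed against each control, while FOS read 4.74, 4.12 and 3.77 and EGR3 4.30, 3.52 and 3.32, with controls more than 0.58 apart in both. In the adhesion and matrix list, 12 of 20 genes lay above and 5 below both controls, beside 44.9% and 28.4% of higher-signal genes. Its median was 0.15. LOX, which cross-links collagen, read 4.88, 5.11 and 5.66 (0.66), and the plaque protein VCL (vinculin) read 8.78, 8.92 and 9.37 (0.52). TMSB15A, an actin-binding thymosin, was the one gene of that list to pass against each control, at 5.99, 6.04 and 5.34 (-0.67).

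Set beside the other strains, the L. paracasei array had 86 higher-signal genes above each control, next to 90 for L. rhamnosus and 58 for L. plantarum, and between 10 (L. salivarius) and 37 (S. thermophilus) for the rest. Its 33 lower genes compare with 78 for L. rhamnosus, 84 for L. plantarum and 61 for S. thermophilus, and with 17 to 50 in the other 4. All 8 counts use the same controls, each strain was measured on 1 array at its own dose, and the differences between strains were not tested.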

How the data were processed

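RNA was hybridised to Affymetrix GeneChip Human Gene 2.0 ST arrays. Values, as deposited, are log2 signals for each probe set. The labels list MAS5 without a version, and the methods name the GeneChip Command Console Software. The sources used here do not give the background correction, normalization or summarization. Quartiles over all probe sets were close across the 10 arrays but not equal. The L. paracasei array had the lowest lower quartile (2.241), the lowest median (3.289) and the highest upper quartile (5.360) of the 10. The upper quartile was 5.242 in control 1 and 5.311 in control 2. Whether this wider spread moved the shares of genes above and below both controls was not tested. No further normalization was applied in the main comparison, and 0 columns were left unmapped.

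Of 53617 probe sets, 16098 had 1 gene symbol in the platform table, all matched by Entrez ID, and 37519 are unnamed here. Where a gene had several (779 genes), the probe set of highest mean signal was used. Differences were L. paracasei minus the mean of both controls and minus each control, counted at 1.5-fold (Python 3.11.15, numpy 2.4.6, pandas 2.3.3, matplotlib 3.10.9). The counting was tested on simulated data for recovery of planted shifts well above 1.5-fold. Shifts near 1.5-fold and false calls among unchanged genes were not examined there.

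Named genes were the 15 highest and 15 lowest higher-signal genes that passed against each control, 5 higher-signal genes above and 5 below all other arrays by the largest gap, and, per list, members that passed or the 4 with the largest difference. Not all are printed. Other members of the lists and other genes were chosen after their values were seen. Members and the 35 lists, 31 of them with 3 or more measured genes, were chosen with earlier results of these data known. Alternatives were each control alone, quantile normalization, centring, higher-signal genes only, averaged probe sets, signals floored at the 10th percentile, all probe sets and 2-fold.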

Additional observations from a re-analysis of the deposited data

Results flagged for a closer look

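Probe sets without a gene symbol entered none of the comparisons above. Of these 37519 probe sets, 1134 (3.02%) were at least 1.5-fold above each control in the L. paracasei array and 845 (2.25%) were below each control. With at least the median signal of genes, these numbered 325 and 248 of 9133.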

How the results depend on the processing

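With 1 treated array and 2 controls, no value has an error of its own. Genes higher than the mean of the controls by 1.5-fold numbered 395, and 488 to 633 with a control left out, 193 among higher-signal genes, 2797 over all probe sets and 45 at 2-fold. The lower genes numbered 299, and 414 to 543, 64, 2107 and 25 in the same settings. Against each control, the 200 higher genes became 86, 1354 and 18 and the 130 lower genes 33, 997 and 7 in the last 3 of these settings. After quantile normalization the higher and lower genes numbered 351 and 315 against the mean, and 166 and 133 against each control. After centring they numbered 454 and 249, and 226 and 100. The excess of higher over lower genes thus depended on the normalization. The stress response median of 0.35 was 0.29 to 0.33 with a control left out, 0.30 after quantile normalization, 0.38 after centring and 0.46 in higher-signal genes. That of the tRNA synthetases (0.33) was 0.21 to 0.37 with a control left out and 0.23 with the mean of probe sets, and that of mTORC1 genes (0.20) was 0.10 to 0.25 with a control left out. The cause of these shifts was not tested. Single genes and list medians were recomputed in the 7 alternatives other than all probe sets and 2-fold. There the 36 genes named for their difference or gap kept their direction, averaged probe sets included, and 29 to 32 were at 1.5-fold. Single probe sets of TEKT4P2, ZNRF2P1 and MIR486-1 nevertheless went the other way or near 0. The choice of the 36 genes fixed their direction with either control left out. It also left the signal limit and the floor nothing to change (largest shift 0.000). Only quantile normalization, centring and averaged probe sets could have reversed a direction. Of 31 lists, 17 kept the sign of their median in the 7 alternatives and 14 did not. Among the latter were ErbB, TGF-beta and BMP, bacterial sensing, heat shock, choline, cholesterol, cell cycle as well as microRNA genes and cytosolic ribosomal proteins.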
